A study of Rattus norvegicus with 28 samples.

Results

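Cd74, RT1-Da and RT1-Ba, the rat genes for the invariant chain and for the alpha chains of both classical MHC class II molecules, were followed across genotype and tissue. They were chosen by identifier, ENSRNOG00000018735, ENSRNOG00000032844 and ENSRNOG00000000451, with earlier results of these data known. They are 3 of the 30560 genes counted in the spinal cord and brain tables. The study compared wild-type rats (labelled WT) with rats labelled mtCO3mut, in which mitochondrial DNA editing made neurons deficient in cytochrome c oxidase, respiratory complex IV. Its design text writes the edited rats as COXⅢNeuN-Cre, so the change is directed to neurons, and the samples are bulk spinal cord or brain tissue. Strain, age, sex, and whether each library came from its own animal are not in the labels. The p-values given here therefore measure the spread between libraries, which may be technical.

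Later-stage spinal cord (the table is titled lumbar) and brain each have 4 libraries per genotype. No genotype stands in the column names, only a plus or a minus mark. The plus mark is taken here for mtCO3mut and the minus mark for WT, which no label states, and every direction below is plus against minus. If the marks were the other way round, each direction against genotype would reverse. Libraries are numbered 1 to 4 within a mark. The column names repeat the same 8 numbers in both tissues, so a library of one mark and number here has the same number in cord and brain; the labels do not say whether it marks an animal. The early-stage spinal cord table, with 6 samples of each genotype in the labels, has column names that show no genotype or mark. The genotypes could therefore not be compared in early-stage cord, and the levels in its 12 libraries are not described here. Total counts were 21008418 to 40359757 in plus-marked and 39952615 to 47597097 in minus-marked cord, and 64782608 to 82776333 and 33105800 to 62851529 in brain. Plus-marked library 2 was the shallowest in cord, and in brain the plus-marked totals all lay above the minus-marked totals.

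MHC class II molecules are heterodimers of an alpha and a beta chain that show peptides from endocytosed material to CD4+ T cells. Cd74 encodes the invariant chain, which binds newly made class II dimers, blocks their peptide groove and steers them to endosomes, where it is degraded; its cell-surface form is a receptor for the cytokine Mif. RT1-Da encodes the alpha chain of RT1-D, the rat counterpart of human HLA-DR, and RT1-Ba the alpha chain of RT1-B, the counterpart of HLA-DQ. Transcription of all these genes depends on the coactivator Ciita, which interferon-gamma induces in many cell types. In healthy nervous tissue class II is found mainly on macrophages of the meninges and perivascular spaces and on few microglia, and microglia can acquire it when activated.

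Ciita is known to act through factors already bound to a conserved promoter module, in which RFX occupies an X box and NF-Y a CCAAT element called the Y box. The promoters are shown because the genes were high in largely the same libraries. Whether their letters bear on those levels was not tested. All 3 genes matched RefSeq's promoter table by symbol, and the 250 bases before each start are printed from build GRCr8, which is not the build of the counts. The windows are chr18:56526956-56527205 for Cd74, chr20:4515165-4515414 for RT1-Da and chr20:4576807-4577056 for RT1-Ba, all on the plus strand. Capitals mark CCAAT on either strand (ATTGG on the strand shown) and GCAAC on either strand, letters that lie in the X box of many class II genes.
Cd74: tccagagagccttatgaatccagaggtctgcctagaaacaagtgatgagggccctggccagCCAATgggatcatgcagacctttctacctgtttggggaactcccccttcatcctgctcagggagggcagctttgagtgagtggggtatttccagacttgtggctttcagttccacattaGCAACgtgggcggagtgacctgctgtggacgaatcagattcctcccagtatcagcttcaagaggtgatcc
RT1-Da: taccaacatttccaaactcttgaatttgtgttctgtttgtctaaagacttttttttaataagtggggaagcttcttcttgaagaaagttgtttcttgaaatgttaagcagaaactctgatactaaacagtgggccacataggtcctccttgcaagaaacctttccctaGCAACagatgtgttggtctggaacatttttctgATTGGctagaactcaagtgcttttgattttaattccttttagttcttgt
RT1-Ba: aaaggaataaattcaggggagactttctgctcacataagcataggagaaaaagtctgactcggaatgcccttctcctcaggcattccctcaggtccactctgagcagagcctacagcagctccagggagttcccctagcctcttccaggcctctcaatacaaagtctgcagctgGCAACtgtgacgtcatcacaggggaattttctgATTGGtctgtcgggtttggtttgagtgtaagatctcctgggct

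In RT1-Da and in RT1-Ba the GCAAC was followed by ATTGG after a gap of 28 bases, with the GCAAC beginning 82 and 76 bases before the start. The same letters at that gap stood in 9 of 27457 promoter windows of this length (0.0328%), these genes included. With any gap of 10 to 50 bases the order was found in 184 windows (0.67%). Cd74 had GCAAC 70 bases before the start, and its CCAAT lay farther out, at 189 bases and in the other orientation, so it did not hold that arrangement. Taken singly these letters are common: CCAAT stood in 34.3% and GCAAC in 29.6% of windows. TGACG, part of the X2 element next to the X box, was found in RT1-Ba, where its matches on both strands overlap, and not in the windows of the other genes; 19% of all windows hold it. TTCNNNGAA, the letters of a STAT binding site, were in none of the 3 windows and in 7.52% of all. The motifs were picked with the sequences in view, and the gap of 28 bases is the one found in RT1-Da and RT1-Ba. The share at that gap is therefore not a test of rarity. A match is a description, not a shown binding site.

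All 3 genes rose in plus-marked spinal cord, by 2.46- to 2.93-fold. Levels are CPM, counts scaled to a common library size within each tissue by the trimmed mean of M-values (TMM). CPM are not divided by transcript length, so levels are compared within a gene and not between genes. Differences were tested by edgeR's two-sided quasi-likelihood test, adjusted over every gene of the table by Benjamini-Hochberg, at a threshold of 0.05. Of 17134 genes tested in cord, 13.5% passed in either direction and 6.83% were higher in the plus-marked libraries. All 3 genes passed the count filter in both tables. In bulk tissue, more cells with class II transcripts and more transcript per cell cannot be told apart.

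Cd74 stood at 124, 41.5, 73.3 and 87.2 CPM in plus-marked cord libraries 1 to 4, and at 30.3, 40.9, 28.0 and 23.6 CPM in minus-marked libraries 1 to 4. Every plus-marked library lay above every minus-marked one, but library 2 of each mark nearly met. The means were 81.5 ± 34.2 and 30.7 ± 7.35 CPM (SD, n = 4), with a 2.99-fold range among plus-marked libraries against 1.73-fold among minus-marked ones. The log2 fold change was 1.41 (SE 0.29, 95% interval 0.77 to 2.05, edgeR adjusted p = 0.0119).

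RT1-Da stood at 56.3, 32.7, 35.1 and 56.5 CPM in plus-marked cord libraries 1 to 4 and at 19.8, 22.1, 16.8 and 14.7 CPM in the minus-marked ones. The plus-marked libraries fell into a higher pair, 1 and 4, and a lower pair, 2 and 3, all above the minus-marked ones. The means were 45.2 ± 13 and 18.4 ± 3.26 CPM (SD, n = 4). Of these genes it had the smallest standard error, with a log2 fold change of 1.30 (SE 0.20, 95% interval 0.87 to 1.73, edgeR adjusted p = 0.00192).

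RT1-Ba was measured from far fewer reads. Its counts were 238, 64, 144 and 110 in plus-marked cord libraries 1 to 4 and 62, 116, 30 and 36 in the minus-marked ones. Scaled for depth these were 5.68, 3.13, 3.71 and 3.93 CPM against 1.54, 2.44, 0.708 and 0.92 CPM, again without overlap. The raw counts of minus-marked library 2 and plus-marked library 2 stand in the opposite order to their CPM, because the plus-marked library is the shallowest. The log2 fold change was 1.55 (SE 0.36, 95% interval 0.76 to 2.34, edgeR adjusted p = 0.0165). The lowest count, 30, has an exact 95% Poisson interval of 20.2 to 42.8, which covers counting error only. Marks did not overlap, with plus higher, for 9.13% of all genes tested in cord.

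**Figure D1:**
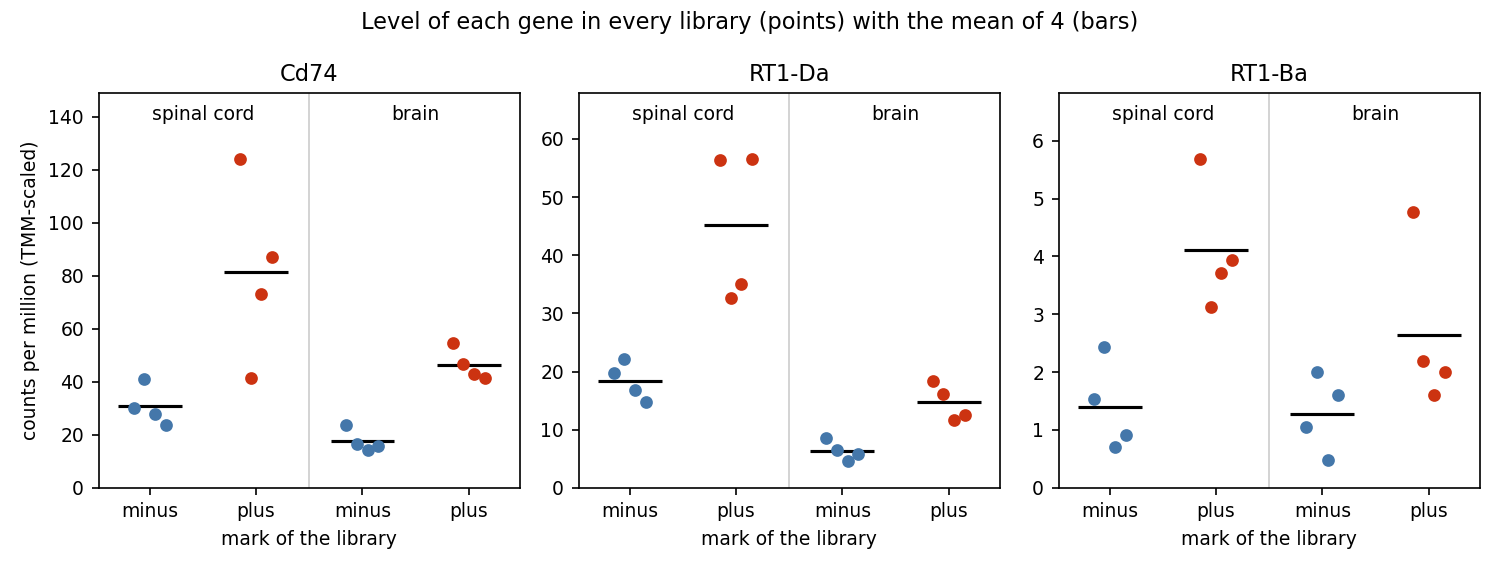
CPM (TMM-scaled within each tissue) of Cd74, RT1-Da and RT1-Ba in the 4 minus-marked and 4 plus-marked libraries of spinal cord and brain; points are libraries, in the order 1 to 4 from left to right, and bars are means. In cord all plus-marked points lie above the minus-marked ones for each gene; in brain this holds for Cd74 and RT1-Da, while RT1-Ba overlaps.

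The column names hold a lane-like code, which moved with the mark in cord: 3 plus-marked libraries and 1 minus-marked library carry L24, and the remaining 1 and 3 libraries carry other codes. Within L24 the fitted log2 fold changes were 1.76 for Cd74, 1.55 for RT1-Da and 2.64 for RT1-Ba, and among the libraries of the other codes they were 0.38, 0.78 and 0.91. Each subset has only 1 library of a mark, so these are values without a replicate check, and whether the change holds within a code cannot be told from them. The lone minus-marked library of L24 is library 3, the lowest for RT1-Ba. The lone plus-marked library of the other codes is library 2. It is the shallowest, and for each of the 3 genes the lowest plus-marked library (41.5, 32.7 and 3.13 CPM). With counts thinned to the smallest library, the log2 fold changes over all 8 libraries were 1.40, 1.34 and 1.61. With L24 against the other codes as a term in the fit of all 8 libraries, Cd74 missed the threshold (log2 fold change 1.08, adjusted p = 0.0884). RT1-Da (1.17, adjusted p = 0.0133) and RT1-Ba (1.75, adjusted p = 0.0334) passed it. Over all alternatives run, the adjusted p in cord ranged from 0.000929 to 0.409 for Cd74, from 1.07e-08 to 0.091 for RT1-Da and from 0.000359 to 0.307 for RT1-Ba. The part of the code in the cord result was not tested beyond these fits. The 3 genes passed in each of the 8 fits with 1 cord library left out.

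In brain Cd74 rose by 2.66-fold and RT1-Da by 2.32-fold, and RT1-Ba did not pass the test. Of 16860 genes tested in brain, 0.243% passed in either direction and 0.19% were higher in the plus-marked libraries. By p-value Cd74 ranked 3rd and RT1-Da 13th among all genes tested there, and in cord 838th and 234th. RT1-Ba ranked 1095th in brain and 1056th in cord. Because the genes were chosen with earlier results of these data known, their ranks and calls are not independent of that choice.

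Cd74 stood at 54.5, 46.9, 42.9 and 41.5 CPM in plus-marked brain libraries 1 to 4 and at 23.8, 16.6, 14.1 and 15.6 CPM in the minus-marked ones. The groups were well apart, with plus-marked libraries within a 1.31-fold range. The means were 46.4 ± 5.83 and 17.5 ± 4.31 CPM (SD, n = 4), a 2.66-fold difference (log2 1.41, SE 0.15, 95% interval 1.09 to 1.73, edgeR adjusted p = 0.00114). Cord plus-marked library 2 was the lowest of its group for Cd74, whereas the brain library of the same mark and number was the second highest of its own.

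RT1-Da stood at 18.3, 16.2, 11.7 and 12.5 CPM in plus-marked brain libraries and at 8.56, 6.44, 4.66 and 5.85 CPM in minus-marked ones. These did not overlap, and the means were 14.7 ± 3.11 and 6.38 ± 1.63 CPM (SD, n = 4). The log2 fold change was 1.21 (SE 0.18, 95% interval 0.82 to 1.61, edgeR adjusted p = 0.0182). That call was lost in 3 fits with 1 library left out. The edgeR adjusted p was 0.0502 without plus-marked library 1, 0.0691 without plus-marked library 2 and 0.0809 without minus-marked library 4. In these fits the log2 fold changes were 1.09, 1.16 and 1.18, with unadjusted p of 2.86e-05, 6.74e-05 and 0.000164, against 1.47e-05 with all libraries. Over all genes 8, 10 and 15 were called in them, against 41. Over all alternatives the adjusted p of RT1-Da in brain ranged from 1.17e-07 to 0.0809.

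RT1-Ba had counts of 302, 178, 110 and 146 in plus-marked brain libraries, or 4.77, 2.20, 1.60 and 2.00 CPM. In minus-marked libraries the counts were 38, 92, 32 and 64, or 1.06, 2.00, 0.475 and 1.60 CPM. Plus-marked library 1 stood above all others, and the remaining plus-marked libraries met the upper minus-marked ones. The log2 fold change of 1.05 (SE 0.44, 95% interval 0.10 to 2.01) had an edgeR adjusted p of 0.516 and an unadjusted p of 0.0336. Without plus-marked library 1 it was 0.61. It passed the threshold under none of the 19 alternatives run in brain, and its interval still contains the changes of the other genes. Marks did not overlap, with plus higher, for 2.67% of all genes tested in brain, against 2 of these 3.

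The brain codes divide the marks more evenly. Within L3, with 3 plus-marked and 2 minus-marked libraries, the log2 fold changes were 1.25 for Cd74, 1.05 for RT1-Da and 0.88 for RT1-Ba (edgeR adjusted p = 0.0124, 0.0793 and 0.914). Within L1, with 1 plus-marked and 2 minus-marked libraries, they were 1.48, 1.25 and 0.98, values that rest on a single plus-marked library and have no replicate check. Depth also moved with the mark in brain. With counts thinned to the smallest library the brain log2 fold changes were 1.43, 1.18 and 1.02, with adjusted p of 0.00184, 0.0204 and 0.56.

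**Figure D2:**
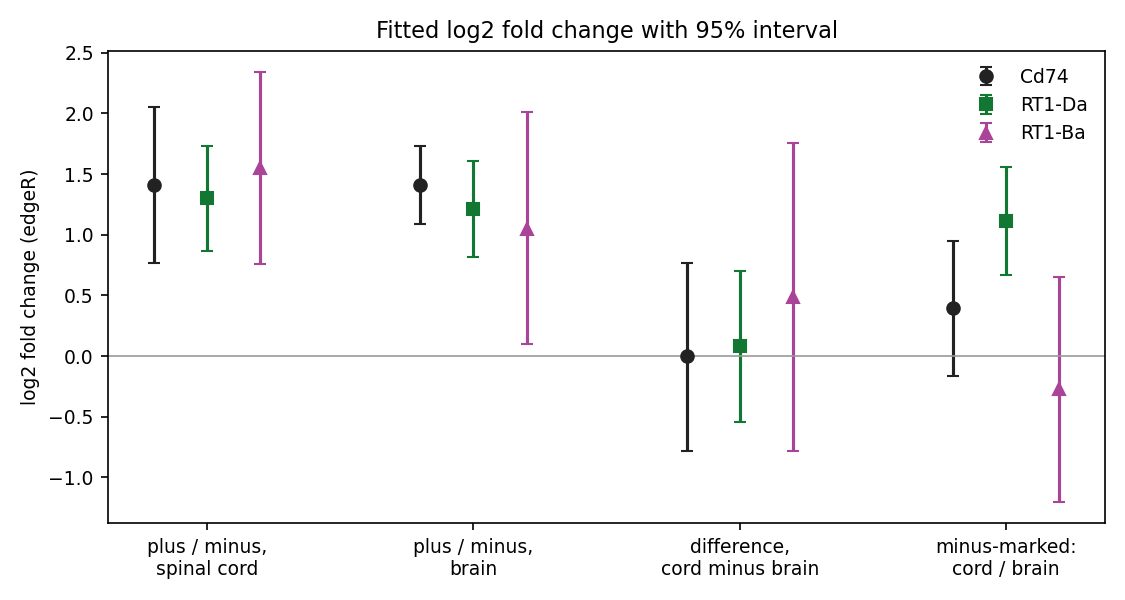
Fitted log2 fold changes with 95% intervals for plus against minus in each tissue, for the difference between the tissues, and for minus-marked cord against minus-marked brain. The plus-against-minus estimates lie between 1.05 and 1.55, and all 3 intervals of the tissue difference include 0.

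The effect of the mark was not shown to differ between the tissues for any of the genes. In the joint fit of all 16 libraries, the difference of the log2 fold changes, cord minus brain, was 0.00 for Cd74 (95% interval -0.78 to 0.77), 0.08 for RT1-Da (-0.54 to 0.70) and 0.49 for RT1-Ba (-0.78 to 1.76). None of the 3 passed the threshold by edgeR or by DESeq2, also at an unadjusted p under 0.05. Of 17823 genes, 2.79% passed the edgeR interaction test, and 1.03% did so with a more positive effect in cord. This fit treats the libraries of both tissues as independent. The intervals leave room for effects that are larger in cord by up to 1.70-fold for Cd74, 1.62-fold for RT1-Da and 3.40-fold for RT1-Ba. Like effects are therefore not shown either. With the number in the column names as a block, the standard errors were 0.28, 0.22 and 0.38, against 0.36, 0.30 and 0.61 without it. None of the 3 genes passed the threshold in that fit either.

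Between the tissues themselves the genes parted. RT1-Da was higher in minus-marked cord than in minus-marked brain, 2.16-fold in the joint fit (log2 1.11, SE 0.21, 95% interval 0.67 to 1.56, edgeR adjusted p = 0.000119). Cd74 had a log2 difference of 0.40 (95% interval -0.16 to 0.95, adjusted p = 0.187) and RT1-Ba one of -0.27 (-1.20 to 0.65, adjusted p = 0.593). In this comparison 70.7% of all genes passed the threshold and 36.7% were higher in cord, so a call like that of RT1-Da was common. Tissue and table cannot be told apart. When the fit held the lane-like code, the codes were nested within tissue. The contrast then set minus-marked cord of code L24 against minus-marked brain of code L1, which is a different quantity. For Cd74 its log2 value was 0.98 (edgeR adjusted p = 0.0426). Over all alternatives the adjusted p of Cd74 reached 0.475.

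Scaled jointly, RT1-Da ordered the conditions as plus-marked cord (28.1 to 48.9 CPM), plus-marked brain (13.6 to 21.2), minus-marked cord (12.8 to 19.2) and minus-marked brain (5.42 to 9.91). Plus-marked brain and minus-marked cord overlapped, and the other neighbours in that order did not. Cd74 followed the same order of means, at 70.3 ± 29.9, 53.7 ± 6.71, 26.6 ± 6.39 and 20.3 ± 4.95 CPM (SD, n = 4). Here the ranges of the 2 plus-marked groups overlapped, and so did those of the 2 minus-marked groups. RT1-Ba had means of 3.54 ± 0.969 and 3.06 ± 1.66 CPM in plus-marked cord and brain and of 1.21 ± 0.673 and 1.49 ± 0.763 CPM in minus-marked cord and brain. Among libraries with the same mark and number in both tissues, cord was above brain for RT1-Da in 8 of 8, by 1.50- to 3.30-fold. For Cd74 this held in 6 of 8 and for RT1-Ba in 5 of 8. The share of all genes with such counts was not computed. By edgeR, 36.7% of all genes were called higher in minus-marked cord than in minus-marked brain.

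The ratio of Cd74 to RT1-Da counts within a library, which needs no scaling for depth, was lower in cord than in brain. It was 1.27 to 2.21 in the 8 cord libraries and 2.58 to 3.66 in the 8 brain libraries, with no overlap. This difference was not tested, and the share of all gene pairs that part the tissues likewise was not computed. Of single genes, 70.7% passed between minus-marked cord and brain, so a ratio that parts them need not be particular to this pair. By mark it was 1.78 ± 0.445 in plus-marked and 1.66 ± 0.136 in minus-marked cord, and 3.21 ± 0.353 and 2.76 ± 0.196 in brain (SD, n = 4), with overlapping ranges in each tissue. In plus-marked cord the ratio was 2.21, 1.27, 2.09 and 1.55 in libraries 1 to 4, a wider spread than the 1.53 to 1.85 of the minus-marked libraries. Library 2 had the lowest ratio, so its Cd74 was low also relative to its RT1-Da. RT1-Da per RT1-Ba was 11.1 ± 2.26 and 15.4 ± 6.20 in plus- and minus-marked cord and 6.20 ± 1.66 and 6.18 ± 3.26 in brain (SD, n = 4), again with overlapping marks. These ratios are read counts and not ratios of molecules, since transcript length differs between the genes.

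**Figure D3:**
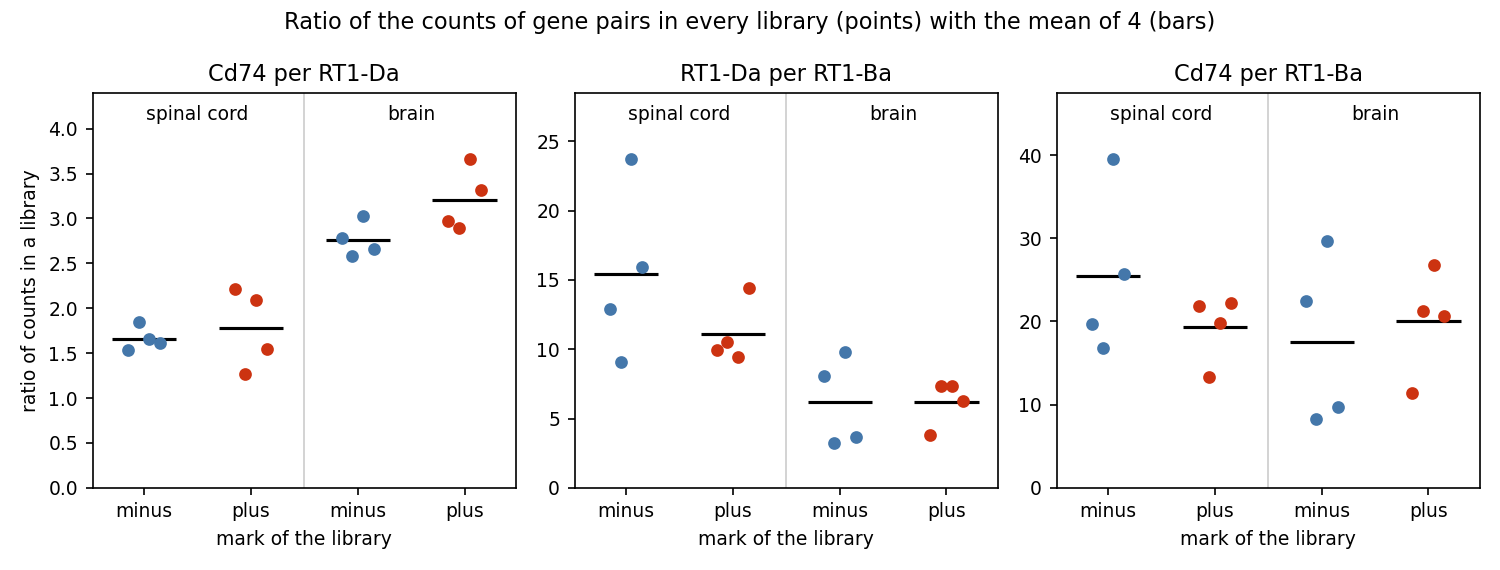
Ratio of the counts of each pair of genes within a library, by tissue and mark; points are libraries and bars are means of 4. Cd74 per RT1-Da lies between 1.27 and 2.21 in cord and between 2.58 and 3.66 in brain, and the marks overlap in every panel and tissue.

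Taken over both marks, Cd74 and RT1-Da had closely matching levels across libraries, and RT1-Ba matched them less closely. With each table centred on its own mean, log2 CPM of Cd74 and RT1-Da had a Pearson r of 0.97 over the 16 libraries, which share mark, depth and code. The difference between the marks enters this r and the ranks below, and no r within a mark was computed. Among 13920 other genes, RT1-Da was the gene most like Cd74, and Cd74 ranked 2nd for RT1-Da. RT1-Ba was less like either, with an r of 0.81 to Cd74 (rank 159) and 0.85 to RT1-Da (rank 103). Other genes lay as close: ENSRNOG00000024382 had an r of 0.97 to RT1-Da and 0.95 to Cd74, and ENSRNOG00000002470 an r of 0.95 to each. The genes most like RT1-Ba reached an r of 0.92. No names were available for these identifiers.

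Among the 48 counts of the 3 genes, 44 were even numbers, 13 of 16 for Cd74, 15 of 16 for RT1-Da and 16 of 16 for RT1-Ba. Over all genes, 78.9% of counts from 10 to 99 were even in cord and 78.9% in brain. Counting each read of a pair would give such an excess, but the counting setting is not given in the sources used here. If so, the smallest RT1-Ba count stands for 15 read pairs, with an exact 95% Poisson interval of 8.40 to 24.7. With all counts divided by 2, the log2 fold changes were 1.42, 1.30 and 1.55 in cord and 1.41, 1.22 and 1.06 in brain for Cd74, RT1-Da and RT1-Ba.

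The remaining class II chains, Ciita, the interferon-gamma pathway and the markers of microglia, macrophages, dendritic cells, B cells and T cells could not be looked up, because no table used here pairs the identifiers with names. The tissue labels and the edited gene were not checked for the same reason. The RT1 region holds many related genes and differs between rat strains, so reads of RT1-Da and RT1-Ba may have been split with near-identical copies or lost on the reference haplotype. This was not tested. Cd74 lies on another chromosome, outside that region.

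**Figure D4:**
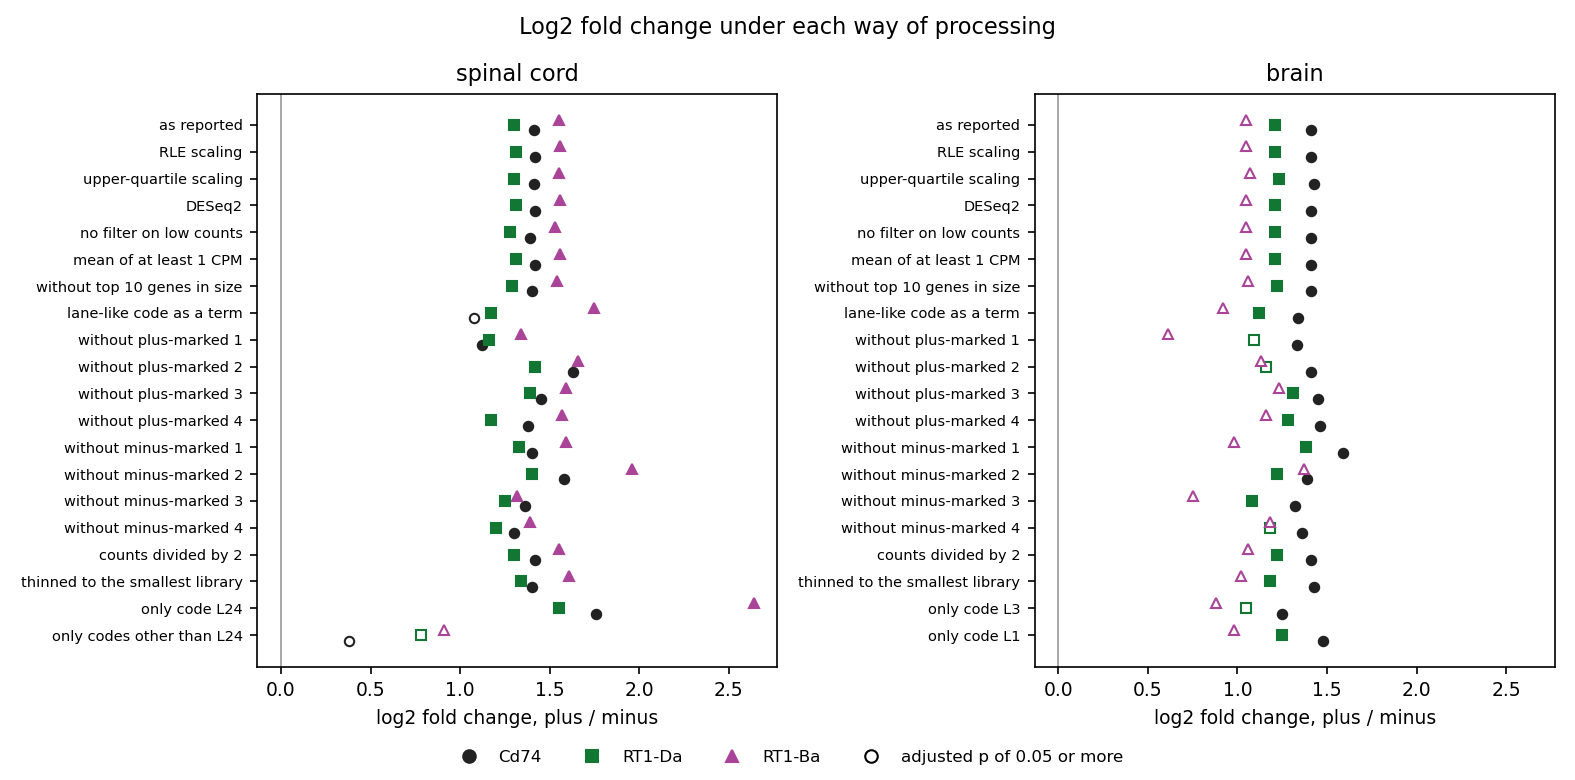
Log2 fold change of plus against minus in spinal cord and brain as reported and under each alternative; filled symbols passed an adjusted p of 0.05 and open ones did not. All values lie above 0; in cord the libraries of codes other than L24, with 1 plus-marked library, give the lowest, 0.38 to 0.91, and in brain RT1-Ba is open throughout.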

How the data were processed

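Ribosome-depleted, strand-marked libraries were sequenced as paired reads, per the labels' protocols. The authors deposited raw counts per Ensembl gene, whole numbers with no normalization. Of tools, featureCounts, cutadapt and DESeq2 appear in the submitters' processing notes, unversioned, with the build mRatBN7.2. Aligner and strand setting were not given in the sources used here. Columns were mapped to groups by their plus or minus mark; 12 early-stage columns were not used.

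Counts were tested with edgeR 4.0.16 (R 4.3.3, limma 3.58.1): filterByExpr, TMM, robust quasi-likelihood fit, each table alone, and a joint fit of 16 libraries for the differences between tissues. Log2 CPM used a prior count of 2. Standard errors come from the F statistic. Alternatives included other scalings, DESeq2 1.42.0, other filters, the lane-like code, a block by number and leaving out each library; the even counts, thinning and single codes were added after the counts were seen. The fits were tested on simulated data. The reference table gave an Ensembl identifier for 0 of 47357 genes, so 6 gene lists and 13 marker lists were not tested. The genes named are the 3 members and, by Pearson r, identifiers most like them; 2 are printed because they have no names. The members and lists were chosen with earlier results of these data known.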

Additional observations from a re-analysis of the deposited data

How the results depend on the processing

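Of 270 values of the 3 genes over 30 alternatives, 261 kept their side of the threshold and none that passed it in either fit changed sign. The 261 include values that never passed, among them all 78 of the tissue difference. For plus against minus, 53 of 57 values kept their side in cord and 53 of 57 in brain, where the 19 of RT1-Ba never passed. Many alternatives refit the same libraries, so these counts are not independent. In cord, 4 values missed the threshold: Cd74 with the code as a term (1.08), and Cd74 (0.38), RT1-Da (0.78) and RT1-Ba (0.91) in the libraries of codes other than L24, where 1 plus-marked library has no replicate. In brain, RT1-Da missed it within L3 (1.05) and without 1 of 3 libraries; with 1 library left out it lay between 1.08 and 1.38. Cd74 in minus-marked cord against brain passed only with the code as a term (0.98), and between 0.23 and 0.53 with 1 library left out it did not. With that term the contrast is between cord of code L24 and brain of code L1, so 0.98 is not the same quantity. The cause of the other changes was not tested. Without a call, the tissue difference of Cd74 lay between -0.29 and 0.21, that of RT1-Da between -0.10 and 0.20, and RT1-Ba in minus-marked cord against brain between -0.69 and 0.04, so their direction is not settled. The count of all genes called was 2312 in cord and 41 in brain, and lay between 1175 and 2114 and between 8 and 60 with 1 library left out, 267 within L24, 1089 in the other codes, 203 in brain by DESeq2, 74 without a filter and 71 within L1. For the tissue difference it was 498, 1131 by DESeq2, and 215 to 647 with 1 library left out.

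A replicate block was possible only between the tissues, by the number in the column names; within a table the marks share no number, so no paired fit was made there. Deviations from group means correlated between same-numbered libraries at -0.05 and 0.05 for plus-marked libraries 2 and 4 and at 0.11 to 0.27 for the others, and 7 of 8 cord libraries were closest to their own number. Each cord library was compared only with the 4 brain libraries of its mark. No p-value was computed for this closeness, and the labels do not state whether the number marks a shared source. With the replicate block the tissue difference was -0.09 for Cd74 (SE 0.28 against 0.36 without it), 0.05 for RT1-Da (0.22 against 0.30) and 0.58 for RT1-Ba (0.38 against 0.61), 696 genes were called, and no call of these genes changed. The early-stage alternatives were not run. RT1-Ba had the lowest count of the 3 genes in every library. Its standard errors for plus against minus were the largest, 0.36 in cord and 0.44 in brain. What sets that spread was not tested.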
